A study of Mus musculus with 12 samples.

Results

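Podosomes are short-lived, actin-rich adhesions, and the 44 mouse genes described here encode their parts: the integrin receptors, the adaptors that tie them to actin, the adhesion kinases, the small GTPases and their regulators, the core scaffolds, and the proteins that cut, cap, bundle or contract filaments. The genes were listed by symbol for these roles, by a rule that uses no measured value, although earlier results of these data were known when the list was made, and all 44 were found among the 46983 identifiers of the deposited count table. After low counts were filtered, 43 of them were among the 14153 genes tested, and the other, Ilk, was not. In an osteoclast, integrins bound to bone gather talin, vinculin and paxillin in a ring around an actin core. As the cell matures and polarises, single podosomes condense into a belt and, on bone, into the sealing zone, which closes off the space into which acid and proteases are secreted. Src and its partner Cbl, and the turnover of filaments by gelsolin and cofilin, keep this structure moving, and mouse osteoclasts that lack Src are known to resorb bone poorly.

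Osteoclasts were grown in vitro from mouse bone marrow monocytes. The medium held 20 ng/ml M-CSF, which keeps precursors alive, and 10 ng/ml RANKL, the cytokine that drives osteoclast formation. The cells were Mincle knockout (KO) or C57BL/6 wildtype (WT). Clec4e encodes Mincle, a receptor by which myeloid cells sense material of dead cells and microbes. At day 1 the pre-osteoclasts of either genotype received, in a ratio of 1:2 and for 24 h, supernatant of osteocytes made necrotic by serum starvation or, as the control, supernatant of viable osteocytes. RNA was taken at day 3. The groups are called KO necrotic, KO viable, WT necrotic and WT viable, with 3 libraries in each. How the Mincle allele was made, and whether it was backcrossed to the WT strain, is not given in the sources used here, and neither is whether the 3 libraries of a group came from separate mice, cultures or wells. All p-values therefore measure the spread between these libraries, which may be technical.

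CPM below are read counts relative to the library total, scaled by edgeR's TMM factors. Total counts lay between 16382366 and 25429661 in 11 libraries, and the third WT viable library had 49612055. Clec4e had 1.98, 1.56 and 2.29 CPM in the KO necrotic libraries, against 1.63, 1.57 and 2.43 CPM in KO viable, and 27.8, 21.9 and 25.4 CPM in WT necrotic, against 22.8, 23.7 and 26.1 CPM in WT viable. The gene was not absent in KO libraries, but it was lower in each of them than in any WT library (log2 fold change -3.67, adjusted p = 2.4e-12), as the genotype labels state. The summed level of 10 osteoclast marker genes was between 19580 and 20390 CPM in KO necrotic against 15465 to 15778 CPM in KO viable, and between 22105 and 23392 CPM in WT necrotic against 17498 to 17829 CPM in WT viable. All 10 were called higher with necrotic supernatant in either genotype, at a median log2 fold change of 0.38 in KO and 0.38 in WT. Markers of other cell types moved in the averaged response too: of the markers tested, 6 of 10 macrophage markers were higher and 1 lower, 5 of 8 neutrophil markers lower and 1 higher, 3 of 3 lymphoid markers lower, 3 of 6 dendritic cell markers lower, 5 of 8 stromal and bone markers lower and 1 higher, 1 of 7 erythroid and platelet markers higher, and neither of 2 muscle markers was called. The neutrophil sum was 935 to 979 CPM in KO necrotic against 1037 to 1122 CPM in KO viable, and 1062 to 1210.3 CPM in WT necrotic against 1246 to 1308 CPM in WT viable. Between genotypes, 7 of 8 neutrophil markers and 4 of 10 osteoclast markers were lower in KO in the average, none higher. Of 10 macrophage markers 2 were higher and 1 lower, and 1 of 7 erythroid and platelet markers was higher. Stromal and bone markers (6 of 8) and muscle markers (2 of 2) were lower. No dendritic cell or lymphoid marker was called. Of all genes tested, 20.5% were called in that contrast. The part of these shifts in the results below was not tested, and in bulk RNA a larger share of a cell type and more RNA per cell cannot be told apart.

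The promoters of the 6 genes whose response to necrotic supernatant, described below, was called in the same direction in both genotypes are shown first. The genes were picked by these calls, and whether their promoters bear on the response was not tested. Each sequence is the 250 bases before the annotated start in RefSeq, build GRCm38.p6, read 5′ to 3′ on the strand of the gene. For Coro1a, which has 2 listed starts, it is the one farther upstream. Capitals mark Sp1 boxes (GGGCGG or its complement CCGCCC) and a PU.1 core (GAGGAA or its complement TTCCTC).
Src, chr2:157424043-157424292, plus strand: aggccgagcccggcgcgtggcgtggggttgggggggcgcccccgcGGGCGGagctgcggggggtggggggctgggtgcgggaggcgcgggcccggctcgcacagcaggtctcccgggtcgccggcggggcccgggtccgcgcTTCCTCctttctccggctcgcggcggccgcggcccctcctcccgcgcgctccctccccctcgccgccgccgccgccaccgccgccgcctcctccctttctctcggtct
Rhou, chr8:123653679-123653928, plus strand: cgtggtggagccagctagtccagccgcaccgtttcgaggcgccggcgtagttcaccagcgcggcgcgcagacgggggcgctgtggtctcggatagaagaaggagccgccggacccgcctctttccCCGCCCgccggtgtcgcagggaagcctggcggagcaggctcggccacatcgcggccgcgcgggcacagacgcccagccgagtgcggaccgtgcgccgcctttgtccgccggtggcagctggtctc
Tmod1, chr4:46038972-46039221, plus strand: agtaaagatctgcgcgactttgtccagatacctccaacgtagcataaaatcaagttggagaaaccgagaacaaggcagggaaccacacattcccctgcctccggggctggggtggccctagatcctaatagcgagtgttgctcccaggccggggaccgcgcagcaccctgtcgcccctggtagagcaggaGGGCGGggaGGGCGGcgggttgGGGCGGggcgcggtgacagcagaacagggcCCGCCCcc
Pstpip1, chr9:56089726-56089975, plus strand: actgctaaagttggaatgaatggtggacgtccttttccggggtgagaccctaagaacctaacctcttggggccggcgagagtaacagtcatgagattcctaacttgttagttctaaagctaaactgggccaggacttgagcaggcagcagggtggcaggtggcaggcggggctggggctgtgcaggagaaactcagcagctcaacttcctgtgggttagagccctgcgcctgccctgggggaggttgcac
Coro1a, chr7:126704817-126705066, minus strand: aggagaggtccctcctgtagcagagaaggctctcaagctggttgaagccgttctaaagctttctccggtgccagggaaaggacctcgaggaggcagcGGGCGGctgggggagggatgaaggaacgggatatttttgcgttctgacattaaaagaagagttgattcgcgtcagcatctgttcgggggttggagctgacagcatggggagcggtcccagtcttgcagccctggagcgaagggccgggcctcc
Flna, chrX:74246535-74246784, minus strand: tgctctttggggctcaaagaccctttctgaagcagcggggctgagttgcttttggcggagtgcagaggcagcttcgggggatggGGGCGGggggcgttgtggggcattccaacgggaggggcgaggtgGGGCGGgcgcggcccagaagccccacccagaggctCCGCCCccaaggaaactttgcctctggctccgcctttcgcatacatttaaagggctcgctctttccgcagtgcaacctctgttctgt
Of these 6 windows, 5 held an Sp1 box and the Src window alone held a PU.1 core. The Tmod1 window held 4 Sp1 boxes, all within the last 60 bases before the start, and the Flna window held 3. The Pstpip1 window held none of the motifs searched and had 6 CpG dinucleotides, against 40 in the Src window. Among the 33 member genes with an entry in the RefSeq table, which list 47 promoters, an Sp1 box was found in 61.7% of promoters, against 32.7% of all 32851 mouse promoters of this length. The PU.1 core, read by the myeloid factor PU.1, was found in 25.5% of member promoters and 23.3% of all. The NFAT core (TGGAAA) was found in 12.8% and 18.6%, the AP-1 site (TGANTCA) in 6.38% and 6.75%, and the E-boxes of MITF (CACGTG or CATGTG) in 10.6% and 17.6%. The SRF CArG box was found in 1 member promoter, that of Vcl, or 2.13%, against 1.47% of all. All motifs were searched on both strands. A match describes these letters only, and genes with several starts count several times. The 32851 promoters were not matched to those of the members for expression or GC content, so the Sp1 difference is not read as particular to the members.

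Levels between genes were compared as CPM per kilobase of annotated exon, averaged over the 12 libraries. On that scale the small actin-binding proteins stood highest. Cfl1 (cofilin, which severs filaments) had 729 CPM per kb, Pfn1 (profilin, which hands actin monomers to growing ends) 572, Capg (a capping protein of macrophages) 497, Cdc42 301 and Gsn (gelsolin, which severs and caps) 272. Among the 4 integrin subunits the leukocyte chain Itgb2 was at 221 CPM per kb, Itgb1 at 157, Itgam at 50 and Itgav, the partner of beta 3 in the osteoclast vitronectin receptor, at 17.5. Of the Itgam exon bases 68.7% also lie in exons of Gm49368 on the same strand, so its level and its place in this order are uncertain. The lowest tested members were Tmod1 at 0.982, Lims2 at 0.821 and Parva at 0.0826 CPM per kb. Their relatives were higher, with Lims1 at 47.5 and Parvg, the parvin of blood cells, at 8.75 CPM per kb. Ilk, the kinase-like scaffold that joins Lims and parvin proteins at integrin tails, had 0 to 2 counts in each library. In the GENCODE M21 annotation 76.8% of its exon bases also lie in exons of Taf10 on the opposite strand and 12.9% in exons of Rrp8. Whether the authors' counting used strand is not given in the sources used here, so the near-zero count of Ilk was not read as its level.

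With necrotic supernatant, 8 of the 43 tested members changed in KO osteoclasts (4 higher and 4 lower), where 7.43% of all genes were called (566 higher and 486 lower). In WT osteoclasts 9 changed (7 higher and 2 lower), where 9.31% of all genes were called (4.81% higher and 4.50% lower). A gene was called at an adjusted p under 0.05 in edgeR's quasi-likelihood test, with Benjamini-Hochberg adjustment over all 14153 genes. Members are highly expressed, and calls are more frequent among such genes: of the 2237 genes averaging at least 100 CPM, 15.3% were called in KO and 19.3% in WT, against 6 of the 32 members at that level, or 18.8%, in either genotype. For members averaging at least 100 CPM the share was thus near that of all genes at that level. Members below 100 CPM, among them Tmod1, Lims2, Rhou and Cttn, were not set beside genes of their own level. The median member moved by 0.01 in KO and 0.02 in WT on the log2 scale, beside 0.00 and -0.01 for all genes tested. The KO count was 5 without the third KO necrotic library, and the WT count 5 without the second WT viable or the second WT necrotic library. The WT calls lost without either of these were Flna, Rac2, Coro1a and Gsn, with adjusted p up to 0.077 for Flna, 0.0653 for Rac2 and 0.0856 for Coro1a over all settings.

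Of the 11 members called in KO or WT, 6 were called in both and in the same direction, and none in opposite directions. The same count over all genes was not made, so this overlap is not read as particular to the members. Src, Pstpip1, Rhou and Tmod1 were higher and Flna and Coro1a lower in both. The KO and WT responses share no library. With both genotypes averaged in one contrast, 15 members were called (9 higher and 6 lower), where 19.4% of all genes were called (9.49% higher and 9.93% lower). Among genes averaging at least 100 CPM the shares were 34.4% of members and 33.6% of all genes.

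**Figure D1:**
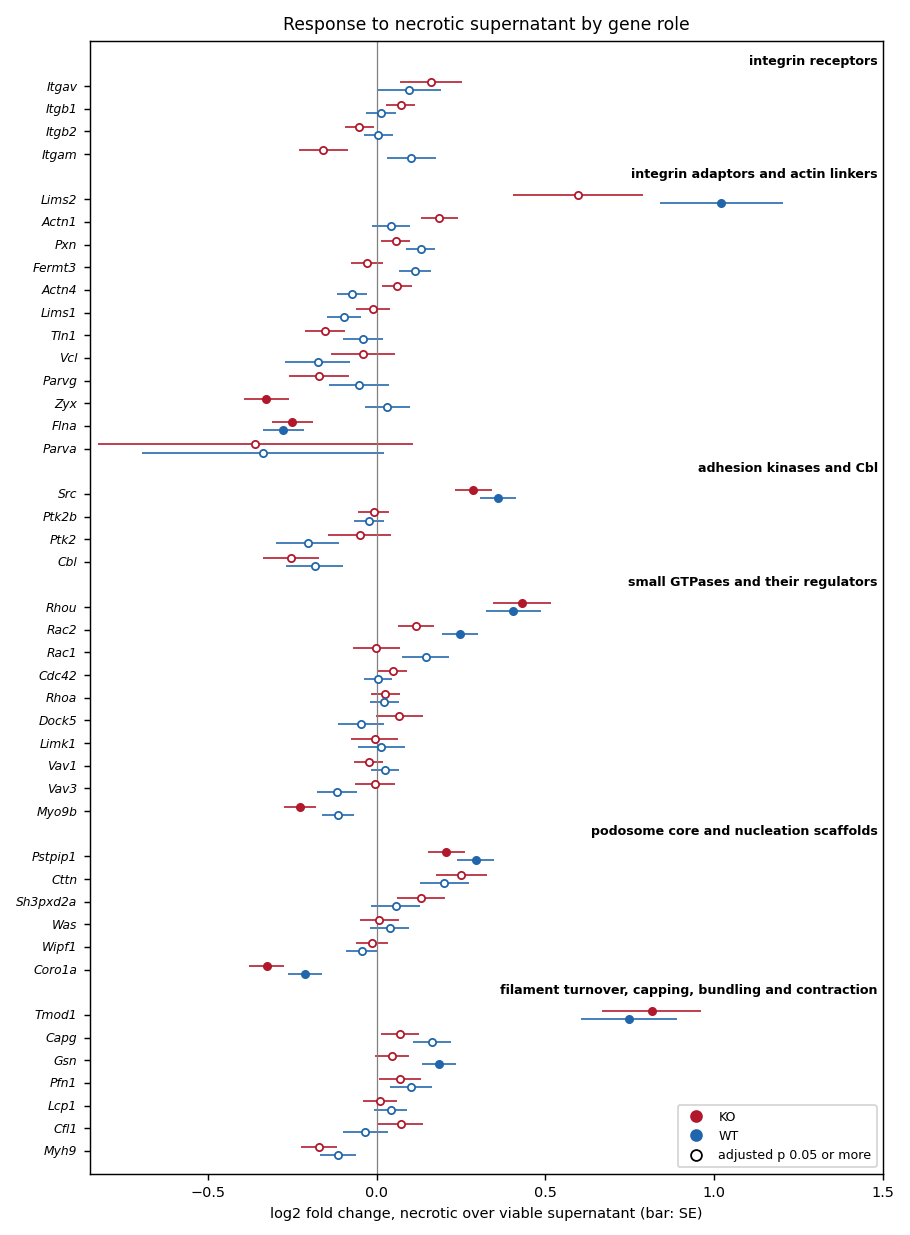
Log2 fold change (x axis) of each of the 43 tested members with necrotic over viable supernatant, in KO (red, upper point) and WT (blue, lower point), grouped by role, with bars for SE. Filled points have an adjusted p under 0.05. Most points lie within 0.2 of 0, while Tmod1, Lims2, Rhou and Src lie to the right and Flna and Coro1a to the left in both genotypes.

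Among the adhesion kinases, Src, the kinase that organises podosomes into the belt, was the member with the smallest p in WT. Src had 174, 172 and 175 CPM in the KO necrotic libraries, against 154, 140.4 and 132 CPM in KO viable, and 179, 179 and 189 CPM in WT necrotic, against 134, 145 and 147 CPM in WT viable. Every library with necrotic supernatant was above every library with viable supernatant. The log2 fold change was 0.29 (SE 0.05, adjusted p = 0.00574) in KO, 0.36 (SE 0.05, adjusted p = 0.00149) in WT and 0.32 (SE 0.04, adjusted p = 5.98e-05) over both. Cbl, the ubiquitin ligase and adaptor that Src phosphorylates, went the other way in the averaged contrast. Cbl had 232, 228 and 218 CPM in the KO necrotic libraries, against 259.7, 279.7 and 269.5 CPM in KO viable, and 166, 175 and 202 CPM in WT necrotic, against 174, 219 and 224 CPM in WT viable. The KO necrotic values all lay below the KO viable ones, while the WT groups overlapped. The log2 fold changes were -0.25 in KO (adjusted p = 0.08) and -0.18 in WT (adjusted p = 0.183), and the average passed at -0.22 (SE 0.06, adjusted p = 0.0174). Without the second WT viable library it did not (adjusted p = 0.0514). The focal adhesion kinases Ptk2b (Pyk2) and Ptk2 (FAK) were not called, with averaged log2 fold changes of -0.02 and -0.13. Ptk2b had the higher level of the 2, 20.7 against 1.76 CPM per kb.

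Among the podosome core and nucleation scaffolds, the 2 clearest changes had opposite directions. Pstpip1 binds WASP and is found in the podosomes of macrophages and osteoclasts. Pstpip1 had 289, 279 and 301 CPM in the KO necrotic libraries, against 264, 246 and 242 CPM in KO viable, and 325, 308 and 311 CPM in WT necrotic, against 277, 246 and 248 CPM in WT viable. The groups did not overlap in either genotype. In KO the log2 fold change was 0.21 (SE 0.05, adjusted p = 0.0336) and in WT 0.29 (SE 0.05, adjusted p = 0.00513). The KO call was lost without any 1 of 5 of the 6 KO libraries, all but the first KO viable one, with adjusted p up to 0.144. Coro1a (coronin 1A, which binds the Arp2/3 complex and works with cofilin) was lower. Coro1a had 313, 350.1 and 351 CPM in the KO necrotic libraries, against 422, 418 and 432 CPM in KO viable, and 399, 372 and 382 CPM in WT necrotic, against 442, 454 and 439 CPM in WT viable. All necrotic values lay below all viable values. Its log2 fold change was -0.33 (SE 0.05, adjusted p = 0.00189) in KO and -0.21 (SE 0.05, adjusted p = 0.0186) in WT.

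Cttn (cortactin, which stabilises branched actin) was called only in the average. Cttn had 35.5, 34 and 38.5 CPM in the KO necrotic libraries, against 29.6, 32.5 and 28.9 CPM in KO viable, and 40.1, 37.4 and 43.8 CPM in WT necrotic, against 35.9, 32.7 and 36.7 CPM in WT viable. In each genotype the necrotic libraries were above the viable ones, and the averaged log2 fold change was 0.23 (SE 0.05, adjusted p = 0.00754). Sh3pxd2a (Tks5, the Src substrate that scaffolds podosomes) had an averaged log2 fold change of 0.09 (adjusted p = 0.218). Was and Wipf1, which encode WASP and its partner WIP, moved little: their averaged log2 fold changes were 0.02 and -0.03, and neither was called in any contrast. Was had 63.4 and Wipf1 39.9 CPM per kb, and their smallest adjusted p, for Wipf1 between genotypes, was 0.417.

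Among the small GTPases, 2 of 5 were called in the averaged response, where 19.4% of all genes and 33.6% of those averaging at least 100 CPM were called. Rhou (Wrch1, an atypical Cdc42-related GTPase found at podosomes) rose with necrotic supernatant in both genotypes. Rhou had 15.6, 16.4 and 16.7 CPM in the KO necrotic libraries, against 10.7, 12.7 and 12.8 CPM in KO viable, and 18.7, 20.7 and 19.7 CPM in WT necrotic, against 15.1, 13.8 and 15.5 CPM in WT viable. The groups did not overlap. Its log2 fold change was 0.43 (SE 0.09, adjusted p = 0.00722) in KO and 0.41 (SE 0.08, adjusted p = 0.00809) in WT. Rac2, the Rac of blood cells, was called in WT and in the average. Rac2 had 554, 567 and 604 CPM in the KO necrotic libraries, against 546, 522 and 523 CPM in KO viable, and 607, 681 and 657 CPM in WT necrotic, against 554, 533 and 552 CPM in WT viable. Its log2 fold change was 0.25 (SE 0.05, adjusted p = 0.0104) in WT and 0.12 in KO (adjusted p = 0.206), and 0.18 (SE 0.04, adjusted p = 0.00333) over both. Rac1 had an averaged log2 fold change of 0.07, Rhoa 0.02 and Cdc42 0.03, and none of these 3 was called in any contrast. Rac1 shares 51.4% of its exon bases with Daglb on the opposite strand, so its value is uncertain.

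Of the regulators, Myo9b, an unconventional myosin that carries a GTPase-activating domain, was lower. Myo9b had 210.5, 219.8 and 196 CPM in the KO necrotic libraries, against 250.1, 244 and 239 CPM in KO viable, and 189, 198 and 201 CPM in WT necrotic, against 211, 213 and 214 CPM in WT viable. Its log2 fold change was -0.23 (SE 0.05, adjusted p = 0.00918) in KO, -0.11 in WT (adjusted p = 0.137) and -0.17 (SE 0.03, adjusted p = 0.0023) over both. The KO call was lost without the third KO necrotic library (adjusted p = 0.0596). Vav1, Vav3 and Dock5, exchange factors of which Vav3 and Dock5 are known to be needed for normal resorption in mice, had averaged log2 fold changes of 0.00, -0.06 and 0.01. Limk1, the kinase that inactivates cofilin, had 0.00. None of the 4 was called in any contrast.

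Among the adaptors and actin linkers, Lims2 (PINCH2, which bridges ILK to other adhesion proteins) had the largest fold change of all members in WT, from a low level. Lims2 had 2.41, 2.24 and 3.24 CPM in the KO necrotic libraries, against 1.82, 1.7 and 1.7 CPM in KO viable, and 4.01, 4.24 and 3.15 CPM in WT necrotic, against 2.15, 1.75 and 1.73 CPM in WT viable. The groups did not overlap in either genotype. The log2 fold change was 1.02 (SE 0.18, adjusted p = 0.00385) in WT, while in KO it was 0.60 (SE 0.19, adjusted p = 0.0732) and did not pass. The average was 0.81 (SE 0.13, adjusted p = 0.000672). It rests on 28 to 87 counts in a library. Its more abundant relative Lims1 had an averaged log2 fold change of -0.05 and was not called.

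Flna (filamin A, which crosslinks filaments and holds integrin tails inactive) was lower with necrotic supernatant. Flna had 1134, 1164 and 1146 CPM in the KO necrotic libraries, against 1397, 1337 and 1363 CPM in KO viable, and 1019, 981 and 1149 CPM in WT necrotic, against 1173, 1334 and 1309 CPM in WT viable. Each necrotic library was below each viable library of its genotype. In KO the log2 fold change was -0.25 (SE 0.06, adjusted p = 0.0208) and in WT -0.28 (SE 0.06, adjusted p = 0.0114). The KO call was lost without any 1 of 5 of the 6 KO libraries, all but the second KO necrotic one, with adjusted p up to 0.0873. Zyx (zyxin, recruited where actin bundles are under tension) was lower in KO and did not pass in WT. Zyx had 109, 121 and 112 CPM in the KO necrotic libraries, against 156, 131 and 141 CPM in KO viable, and 119, 136 and 131 CPM in WT necrotic, against 130.5, 128 and 119 CPM in WT viable. The KO groups did not overlap and the WT groups did. The log2 fold change was -0.33 (SE 0.07, adjusted p = 0.0078) in KO and 0.03 in WT (adjusted p = 0.81). Over both it was -0.15 (SE 0.05, adjusted p = 0.0368), which was lost in 8 of 21 alternative settings.

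Pxn (paxillin, the Src and FAK substrate of the podosome ring) passed narrowly in the average. Pxn had 311, 322 and 304 CPM in the KO necrotic libraries, against 305, 297 and 298 CPM in KO viable, and 312, 329.7 and 318 CPM in WT necrotic, against 287, 301 and 289 CPM in WT viable. The averaged log2 fold change was 0.09 (SE 0.03, adjusted p = 0.0435), and it was lost in 14 of 21 alternative settings. Talin 1 (Tln1), kindlin-3 (Fermt3), Parvg, Actn1 and Actn4 were not called in any contrast. Of these, Tln1 had the highest level at 83.3 CPM per kb, and the nearest to a call was Actn1, at 0.19 in KO (adjusted p = 0.0542). Vcl (vinculin) had an averaged log2 fold change of -0.11 and Parva -0.35, and neither response was called. The 4 integrin subunits were not called either, with averaged log2 fold changes of 0.04 for Itgb1, -0.02 for Itgb2, 0.13 for Itgav and -0.03 for Itgam.

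Among the proteins that act on filaments directly, Tmod1 (tropomodulin 1, which caps pointed ends) rose most. Tmod1 had 4.78, 4.94 and 4.72 CPM in the KO necrotic libraries, against 2.82, 2.3 and 3 CPM in KO viable, and 5.37, 4.79 and 4.89 CPM in WT necrotic, against 3.43, 2.39 and 3.05 CPM in WT viable. All necrotic values were above all viable ones. In KO the log2 fold change was 0.82 (SE 0.15, adjusted p = 0.00396) and in WT 0.75 (SE 0.14, adjusted p = 0.00574). Tmod1 shares 32.6% of its exon bases with Tstd2 on the opposite strand. The response of Tstd2 was 0.00 in KO and -0.23 in WT (adjusted p = 0.0507), so it did not move with Tmod1. Gsn was called in WT and in the average. Gsn had 855, 846 and 872 CPM in the KO necrotic libraries, against 877, 819 and 798 CPM in KO viable, and 871, 957 and 951 CPM in WT necrotic, against 819.7, 819 and 808 CPM in WT viable. Its log2 fold change was 0.18 (SE 0.05, adjusted p = 0.0322) in WT and 0.05 in KO (adjusted p = 0.659). The average was 0.11 (SE 0.04, adjusted p = 0.0337). The WT call was lost in 10 of 22 alternative settings and the averaged call in 12 of 21.

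Myh9 (the heavy chain of nonmuscle myosin IIA, which contracts filaments) was lower in the average. Myh9 had 591, 605 and 591 CPM in the KO necrotic libraries, against 690.4, 659 and 663 CPM in KO viable, and 569, 523 and 581 CPM in WT necrotic, against 572, 639 and 599.9 CPM in WT viable. Its averaged log2 fold change was -0.14 (SE 0.04, adjusted p = 0.0158). Pfn1, Cfl1 and Lcp1 (plastin 2, a bundler of leukocyte actin) were called in no contrast, with averaged log2 fold changes of 0.09, 0.02 and 0.03. Capg had 0.12 (adjusted p = 0.0527).

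**Figure D2:**
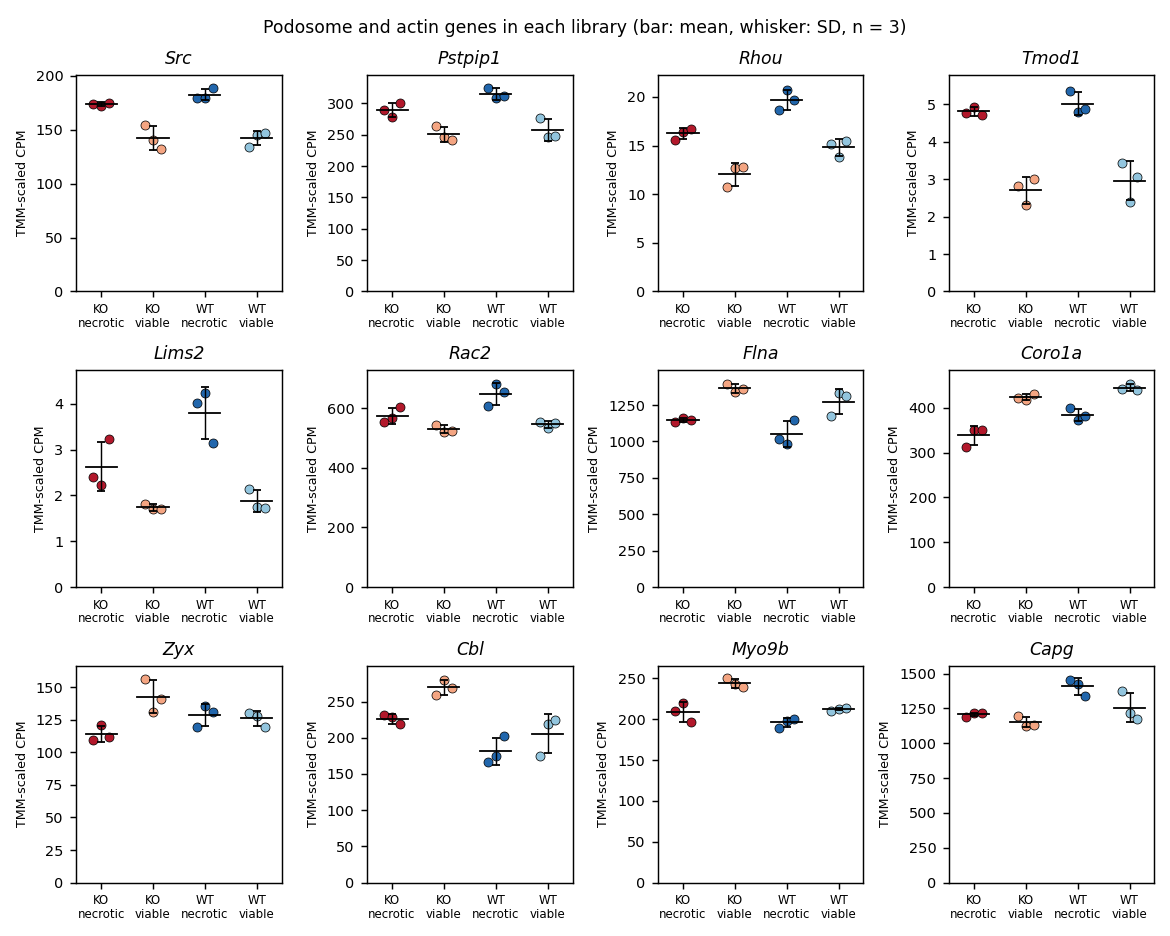
TMM-scaled CPM (y axis, from 0) of 12 members in each of the 12 libraries, as points, with the group mean and SD (n = 3), in the order KO necrotic, KO viable, WT necrotic, WT viable. Src, Pstpip1, Rhou and Tmod1 are higher and Flna and Coro1a lower with necrotic supernatant in both genotypes. Cbl is higher and Rhou lower in KO than in WT under either supernatant.

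Whether Mincle changed the response was asked of each member as the KO response minus the WT response. None of the 43 passed, and none of the 14153 genes did (0% called). Unadjusted p was under 0.05 for 2 of 43 members and 1064 of 14153 genes, and DESeq2 and limma voom also called 0. Without the filter on low counts, edgeR called 209 genes and, among members, Zyx alone. Zyx had the largest gap relative to its error: the difference of responses was -0.36 (SE 0.09, adjusted p = 0.571), with an unadjusted 95% interval of -0.56 to -0.16. For Src the difference was -0.07 with an interval of -0.24 to 0.09, for Rhou 0.03 with -0.23 to 0.28, for Flna 0.03 with -0.16 to 0.21 and for Tmod1 0.07 with -0.37 to 0.50. For Lims2 it was -0.42 with -0.99 to 0.14. The interval lay within 0.5 of 0 on both sides for 39 of 43 members. That limit is wider than the averaged response of Src (0.32) or Flna (-0.26), so the count does not show that responses of such a size were alike. A p that missed the threshold does not show that the responses were alike, and the calls made in 1 genotype alone (Rac2, Gsn and Lims2 in WT, Zyx and Myo9b in KO) were not shown to differ between genotypes.

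Between genotypes, 4 members were called under necrotic supernatant (1 higher and 3 lower in KO), where 8.13% of all genes were called (5.00% higher and 3.12% lower). Under viable supernatant 3 were called (2 higher and 1 lower), where 5.84% of all genes were called (2.87% higher and 2.97% lower). With both supernatants averaged, 11 members differed (6 higher and 5 lower), where 20.5% of all genes were called (10.7% higher and 9.74% lower). Among genes averaging at least 100 CPM, 6 of 32 members or 18.8% were called in the average, against 35.9% of all genes at that level. The necrotic count was 0 without the first or second KO necrotic or the second WT necrotic library, the viable count 0 without the second or without the third KO viable library, and the averaged count 6 without the second KO viable library. The contrasts between genotypes use the same 12 libraries as the responses, and so are not separate evidence.

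Cbl had the largest rise in KO. Its values, given above, were higher in every KO library than in any WT library of the same supernatant. The log2 fold change was 0.32 (SE 0.08, adjusted p = 0.0312) under necrotic supernatant, 0.39 (SE 0.08, adjusted p = 0.017) under viable supernatant and 0.35 (SE 0.06, adjusted p = 0.00122) over both. Rhou was lower in KO, at -0.28 (SE 0.08, adjusted p = 0.0475) under necrotic supernatant, -0.31 (SE 0.09, adjusted p = 0.0478) under viable supernatant and -0.29 (SE 0.06, adjusted p = 0.00378) over both. The first 2 of these Rhou calls were each lost in 15 of 22 alternative settings, and the average in none of 21. Myo9b was higher in KO at 0.20 (SE 0.05, adjusted p = 0.0248) under viable supernatant and 0.15 (SE 0.03, adjusted p = 0.00733) over both, and did not pass under necrotic supernatant at 0.09 (adjusted p = 0.247).

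Capg was lower in KO. Capg had 1191, 1214 and 1216 CPM in the KO necrotic libraries, against 1193, 1126 and 1135 CPM in KO viable, and 1454, 1428 and 1343 CPM in WT necrotic, against 1376, 1218 and 1176 CPM in WT viable. Its log2 fold change was -0.22 (SE 0.06, adjusted p = 0.0283) under necrotic supernatant and -0.17 (SE 0.04, adjusted p = 0.00753) over both. Coro1a was lower in KO at -0.18 (SE 0.05, adjusted p = 0.039) under necrotic supernatant and -0.13 (SE 0.04, adjusted p = 0.0217) over both. The necrotic call of Capg was lost in 7 of 22 alternative settings and that of Coro1a in 14 of 22, and the averaged call of Coro1a in 5 of 21. Under necrotic supernatant neither gene overlapped between genotypes. Cttn was lower in the average only, at -0.19 (SE 0.05, adjusted p = 0.0182).

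Parva (alpha-parvin, the widely expressed ILK partner) had the largest fold change between genotypes. Parva had 0.435, 0.832 and 0.135 CPM in the KO necrotic libraries, against 0.526, 0.727 and 0.526 CPM in KO viable, and 0.679, 1.34 and 0.953 CPM in WT necrotic, against 1.39, 1.46 and 1.06 CPM in WT viable. The averaged log2 fold change was -1.11 (SE 0.29, adjusted p = 0.0145), from 3 to 53 counts in a library, and the genotypes overlapped. The sum of 9 stromal and bone markers moved with it: 16.0 to 38.4 CPM in KO necrotic against 37.5 to 55.9 CPM in WT necrotic, and 17.9 to 50.0 CPM in KO viable against 69.3 to 105 CPM in WT viable. Of the 8 such markers tested, 6 were lower in KO in the average and none higher, and no marker of the list was at 0 in all libraries. The sum of 6 muscle markers was 14.1 to 18.7 CPM in KO necrotic against 21.3 to 32.4 CPM in WT necrotic, and 15.5 to 20.4 CPM in KO viable against 27.9 to 36.7 CPM in WT viable. The part of either in the Parva result was not tested.

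Itgb2 (beta 2, the shared chain of the leukocyte integrins) was slightly higher in KO. Itgb2 had 664, 699.6 and 690.0 CPM in the KO necrotic libraries, against 723, 709 and 697 CPM in KO viable, and 648, 645 and 661 CPM in WT necrotic, against 652, 643 and 653 CPM in WT viable. The averaged log2 fold change was 0.10 (SE 0.03, adjusted p = 0.0296). Vcl was higher in KO. Vcl had 54.6, 54.9 and 53.7 CPM in the KO necrotic libraries, against 57.9, 54.9 and 55.2 CPM in KO viable, and 42, 40 and 52.5 CPM in WT necrotic, against 42.9, 55.5 and 53.7 CPM in WT viable. The averaged log2 fold change was 0.21 (SE 0.07, adjusted p = 0.0426), and 25.5% of its exon bases are shared with Ap3m1 on the opposite strand, which was not called. Sh3pxd2a was higher in KO. Sh3pxd2a had 107, 97.4 and 98.2 CPM in the KO necrotic libraries, against 93.3, 90.5 and 93 CPM in KO viable, and 86.5, 79.5 and 96.8 CPM in WT necrotic, against 75.6, 87.1 and 89.9 CPM in WT viable. The averaged log2 fold change was 0.17 (SE 0.05, adjusted p = 0.0312). Myh9 was higher in KO at 0.12 (SE 0.04, adjusted p = 0.0313). Of these averaged calls, Itgb2 was lost in 6, Vcl in 11, Sh3pxd2a in 9 and Myh9 in 10 of 21 alternative settings. Src did not differ beyond its error, at -0.04 (adjusted p = 0.55), and Itgam had 0.20 under viable supernatant (adjusted p = 0.106).

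**Figure D3:**
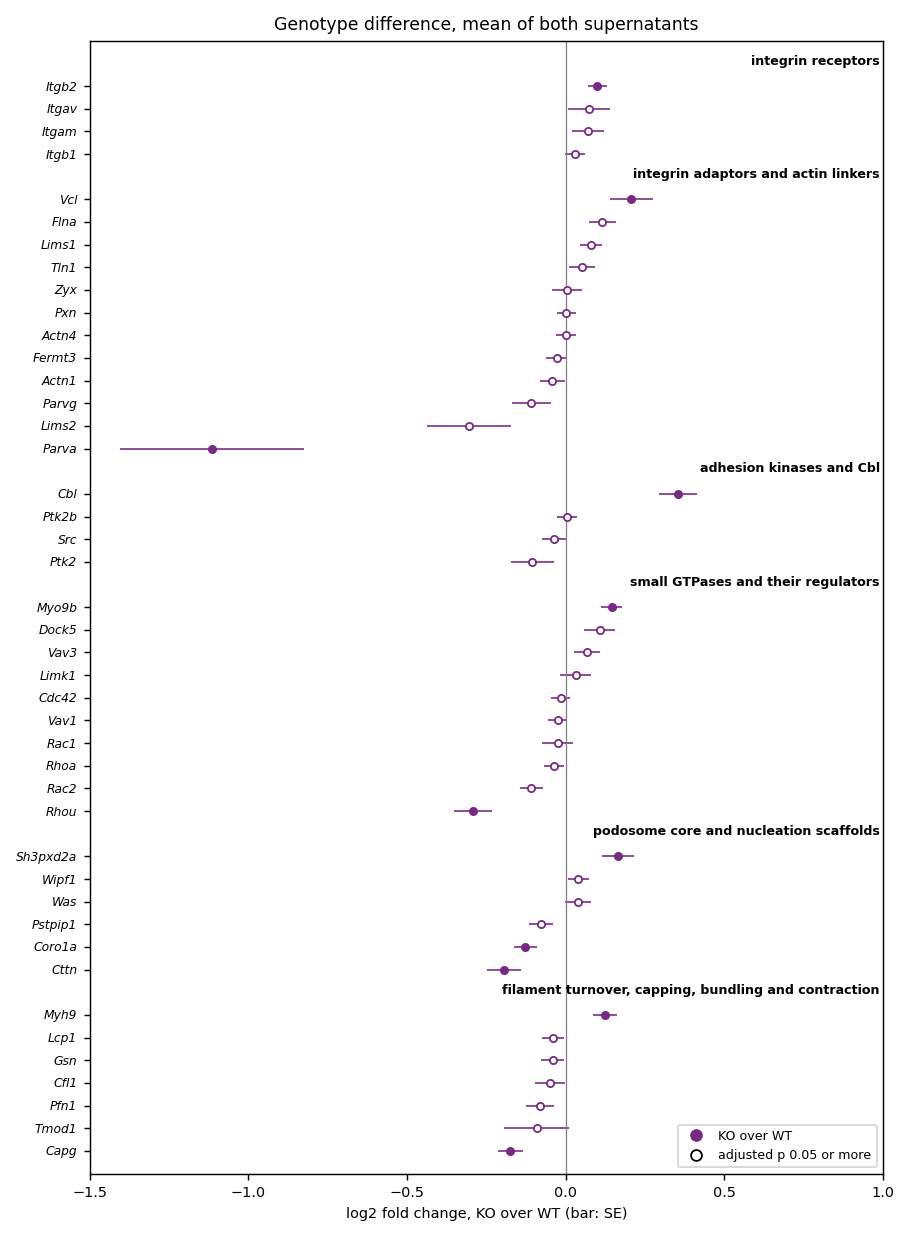
Log2 fold change (x axis) of each of the 43 tested members in KO over WT, averaged over both supernatants and grouped by role, with bars for SE. Filled points have an adjusted p under 0.05. Cbl at 0.35 lies farthest right and Parva at -1.11 farthest left.

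Fold changes moved with gene length across the whole table, and podosome genes are long. The median exon length was 5390 bases in the 43 members and 4040 bases in all genes tested. Across 11485 genes, Spearman's correlation between exon length and log2 fold change was -0.30 for the averaged response and 0.46 for the averaged genotype difference. With GC content it was 0.09 and -0.24. For the difference of responses it was 0.02 with length and -0.24 with GC content. These values are a description across genes that share libraries. The responses and genotype differences were therefore fitted again with the trends on length and GC content taken out. The responses of Src, Pstpip1, Rhou, Tmod1, Coro1a and Flna were called in both genotypes there too, at an averaged 0.31 (adjusted p = 5.51e-05) for Src and -0.21 (adjusted p = 0.000328) for Flna. Gsn in WT was not called, at 0.14 (adjusted p = 0.0798), nor Myh9 in the averaged response, at -0.06 (adjusted p = 0.167).

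Genotype differences changed more. Myh9 had 0.02 (adjusted p = 0.675), Sh3pxd2a 0.08 (adjusted p = 0.17), Vcl 0.14 (adjusted p = 0.107) and Coro1a -0.05 (adjusted p = 0.298) in the average, so these 4 calls were lost. Under necrotic supernatant Cbl had 0.19 (adjusted p = 0.0678), Capg -0.11 (adjusted p = 0.122), Coro1a -0.08 (adjusted p = 0.308) and Rhou -0.23 (adjusted p = 0.113), and under viable supernatant Rhou had -0.30 (adjusted p = 0.0561), so these 5 calls were lost. In the average Cbl had 0.24 (adjusted p = 0.00182), Rhou -0.26 (adjusted p = 0.00774), Myo9b 0.12 (adjusted p = 0.0132) and Parva -1.20 (adjusted p = 0.012), and these stayed called. Some members were called only there. Actn1 had 0.13 (adjusted p = 0.0224) and Sh3pxd2a 0.16 (adjusted p = 0.00886) in the averaged response, and Itgav 0.18 (adjusted p = 0.0239). Lcp1 had -0.13 (adjusted p = 0.00817), Ptk2 -0.22 (adjusted p = 0.0415) and Rhoa -0.10 (adjusted p = 0.0468) in the averaged genotype difference. The trends on length and GC content were taken out together, so their parts in these shifts cannot be told apart. Whether length, GC content or something that varies with them moved these values was not tested.

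**Figure D4:**
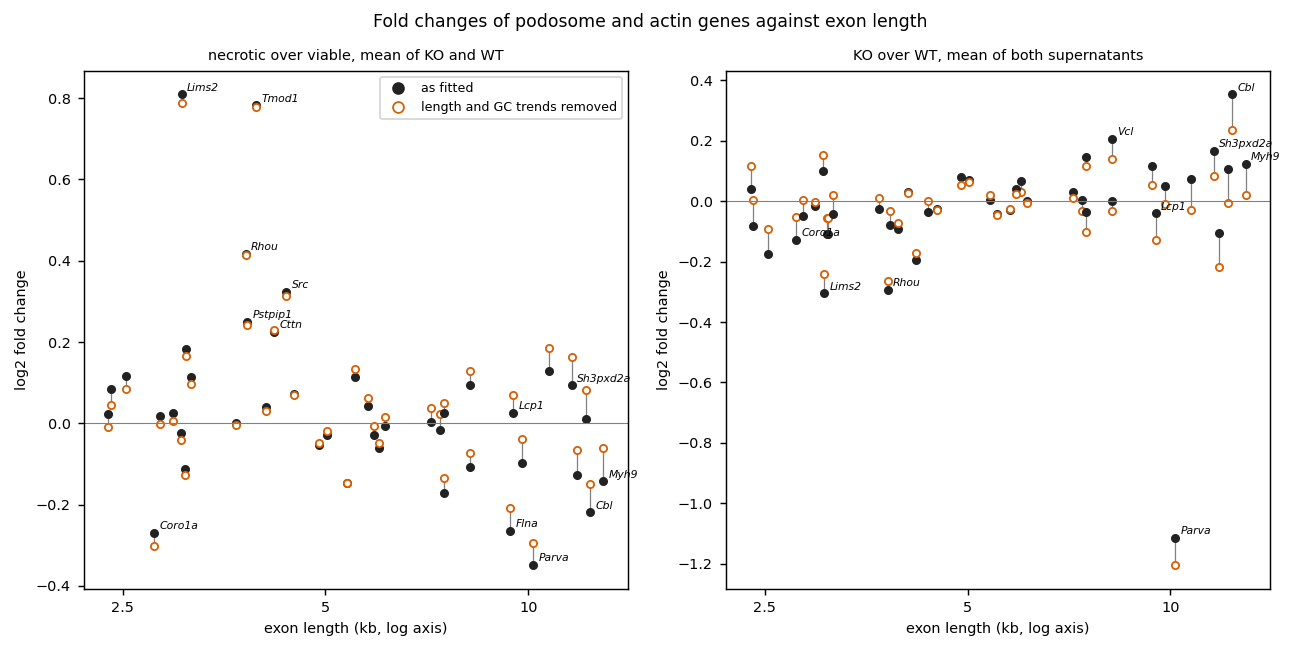
Log2 fold change (y axis) of the 43 tested members against exon length in kb (log x axis), for necrotic over viable supernatant (left) and KO over WT (right), each averaged. Filled points are as fitted, and open points, joined by a line, have the trends on length and GC content taken out. The long genes Myh9 and Cbl move towards 0 in both panels, while Src, Rhou, Tmod1 and Lims2 hardly move in the left one.

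Other genes of the adhesion and actin machinery were read from 10 lists of 124 genes, of which 121 were tested. With necrotic supernatant 20 or 16.5% were called in KO (10 higher and 10 lower), beside 7.43% of all genes and 15.3% of genes averaging at least 100 CPM. In WT 26 or 21.5% were called (17 higher and 9 lower), beside 9.31% and 19.3%, and in the average 39 or 32.2% (20 higher and 19 lower), beside 19.4% and 33.6%. The lists were not cut by level and also hold genes far below 100 CPM, such as Itga9, averaging 15.4 CPM over the necrotic libraries. Neither background share is thus matched to the level of the listed genes. The counts by list below are descriptions of small lists read beside the same 2 shares of the averaged response. The median averaged log2 fold change was -0.01, beside 0.00 for all genes, and the changes below are on that scale. None of the 121 passed for the difference of responses, where 8 had an unadjusted p under 0.05, beside 1064 of all 14153 genes.

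Of 10 other integrin chains, 7 changed in the averaged response (4 higher and 3 lower), where 19.4% of all genes and 33.6% of those averaging at least 100 CPM were called. Itgb3, the beta 3 chain that pairs with Itgav on osteoclasts and is also among the osteoclast markers, rose by 0.28 (adjusted p = 0.011) in KO and 0.26 (adjusted p = 0.015) in WT. Itga9 rose by 0.63 (adjusted p = 0.00378) in KO and 0.72 (adjusted p = 0.00136) in WT. Itgb5, another beta partner of Itgav, rose by 0.19 (adjusted p = 0.000606) over both, and Itga4 was lower in WT at -0.48 (adjusted p = 0.0122). Of 19 other podosome and Src pathway genes, 5 changed (3 higher and 2 lower). Mmp14, the membrane-bound matrix protease of podosomes, rose by 0.26 (adjusted p = 0.00345) in KO and 0.33 (adjusted p = 0.000631) in WT. The Src family kinase Lyn rose in WT at 0.25 (adjusted p = 0.00361), and its relative Fgr was lower in KO at -0.33 (adjusted p = 0.00276). Asap1, an Arf regulator of podosomes, was lower in KO at -0.21 (adjusted p = 0.0129).

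Of 9 formins, which grow unbranched filaments, 4 changed in the averaged response, in which 19.4% of all genes were called. Fmnl2 rose by 0.43 (adjusted p = 0.00382) in KO and 0.45 (adjusted p = 0.00303) in WT, and Diaph1 was lower in KO at -0.20 (adjusted p = 0.011). Of 15 actins, severing and capping proteins, 5 changed (4 higher and 1 lower). The monomer-binding twinfilin Twf1 rose by 0.22 (adjusted p = 0.00785) in KO and 0.22 (adjusted p = 0.00972) in WT, the gelsolin relative Scin rose in KO at 0.28 (adjusted p = 0.00763), and Actb, beta-actin, was lower in KO at -0.20 (adjusted p = 0.0168). Of 20 other small GTPase pathway genes, 8 changed (2 higher and 6 lower). The Rac exchange factor Tiam1 was lower at -0.37 (adjusted p = 0.00684) in KO and -0.47 (adjusted p = 0.00181) in WT, the Rac and Cdc42 effector Iqgap1 at -0.23 (adjusted p = 0.00918) in KO and -0.22 (adjusted p = 0.0108) in WT, and the exchange factor Dock2 at -0.20 (adjusted p = 0.000773) over both.

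Of 20 other adhesion adaptors, 7 changed (3 higher and 4 lower). Tns1 (tensin 1) rose by 0.21 (adjusted p = 0.0156) in KO and 0.32 (adjusted p = 0.00164) in WT, Fblim1 (migfilin) rose by 0.18 (adjusted p = 0.000936) over both, and Evl, of the Ena/VASP family, was lower in KO at -0.28 (adjusted p = 0.00551). Of the branched-actin machinery, 1 of 9 Arp2/3 subunits was called in the average, Arpc3 at 0.13 (adjusted p = 0.0427), and 1 of 9 tested WAVE complex genes, Cyfip2 at 0.21 (adjusted p = 0.00301). Each is a share of 11.1%, beside 19.4% of all genes, and the difference was not tested. Among 5 tested tropomodulins and tropomyosins other than the member Tmod1, Tpm3 alone was called, at -0.12 (adjusted p = 0.0241). Of 5 genes of nonmuscle myosin II chains and their light chain kinase, other than the member Myh9, none was called. Tmod1 (0.78, adjusted p = 0.000125) and Myh9 (-0.14, adjusted p = 0.0158) were themselves called in the average.

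**Figure D5:**
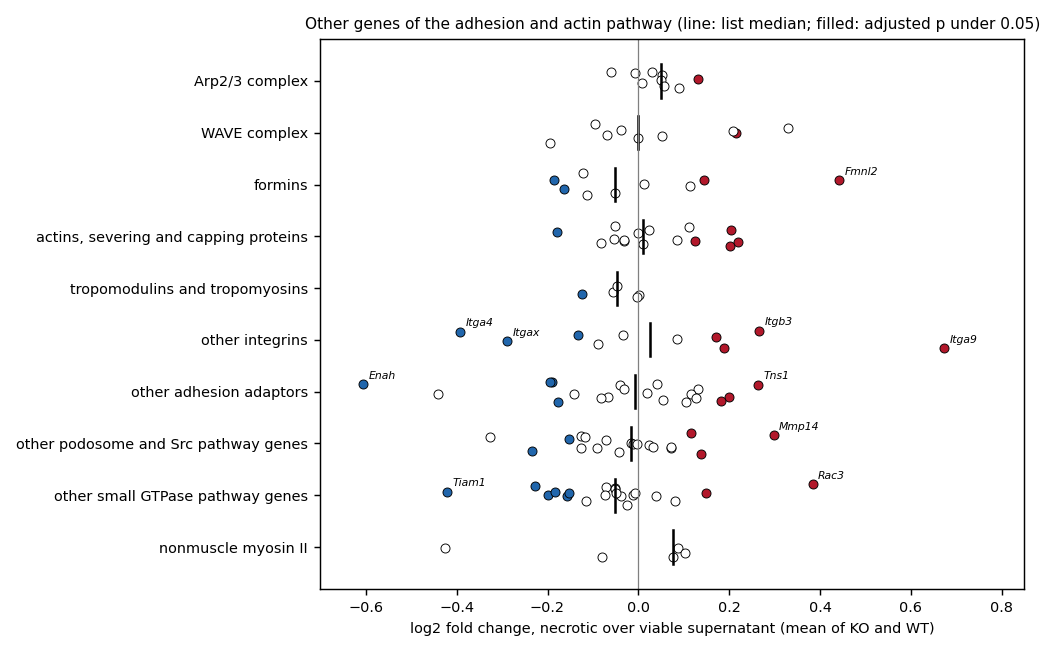
Averaged log2 fold change with necrotic over viable supernatant (x axis) of 121 further genes in 10 adhesion and actin lists (rows). Each point is a gene, filled red (higher) or blue (lower) where the adjusted p was under 0.05, and vertical lines are list medians. Itga9, Fmnl2, Mmp14 and Itgb3 lie to the right and Tiam1 to the left, while Arp2/3 subunits lie near 0.

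Between genotypes, 34 of the 121 or 28.1% differed in the average (21 higher and 13 lower in KO), beside 20.5% of all genes and 35.9% of those averaging at least 100 CPM. Tns1 was higher in KO at 0.21 (adjusted p = 0.0178) under necrotic and 0.32 (adjusted p = 0.00194) under viable supernatant, and the formin Diaph2 at 0.40 (adjusted p = 0.00662) under necrotic and 0.30 (adjusted p = 0.027) under viable supernatant. Limk2, a cofilin kinase, was lower at -0.30 (adjusted p = 0.0143) under necrotic and -0.36 (adjusted p = 0.00545) under viable supernatant, and the cofilin phosphatase Ssh2 was higher over both at 0.32 (adjusted p = 0.000424). Itga2 was higher over both at 0.52 (adjusted p = 0.00123) and Rhoc lower at -0.32 (adjusted p = 0.000533). Enah, an Ena/VASP protein, was lower at -0.84 (adjusted p = 0.00901), at 0.589 CPM in KO necrotic against 1.22 CPM in WT necrotic and 1.06 CPM in KO viable against 1.57 CPM in WT viable, and it moved with the stromal marker sum given beside Parva. The part of that sum was not tested.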

How the data were processed

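Osteoclast RNA from 12 libraries (4 groups of 3) was sequenced as paired ends. Raw counts for each Ensembl gene, with no scaling, were deposited by the authors in 1 table. HISAT2 2.0.5, HTSeq 0.6.1 and genome build GRCm38 are named in the submitters' processing notes. Symbols and exon lengths were taken from GENCODE M21, in which 46488 of 46983 identifiers matched. Genes passing edgeR's filterByExpr (14153) were fitted with edgeR 4.0.16 (R 4.3.3) by the quasi-likelihood test: TMM scaling, 4 group means, 7 contrasts, Benjamini-Hochberg over all genes, threshold 0.05. SE is the fold change divided by the root of F. The biological coefficient of variation was 7.18%. The number of counts behind each value limits its precision.

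The members and lists were chosen with earlier results of these data known. Named genes were all members with a call, the highest and the nearest to a call of each other role group, and up to 3 called genes per list and contrast. Alternatives used DESeq2 1.42.0 and limma 3.58.1 (voom), no or a stricter filter (5 CPM in 3 libraries), length and GC offsets, only the groups compared, the replicate block, thinning of the deepest library, and each library left out.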

Additional observations from a re-analysis of the deposited data

How the results depend on the processing

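Of 50 calls of a member in a contrast, 26 were kept in every setting run, 24 were lost in at least 1, and 0 reversed. Tmod1, Lims2 and Parva did not pass the stricter filter, so their calls were not tested in that setting and count as kept over the others. Of the responses within a genotype, Src, Rhou and Tmod1 were kept in KO and in WT, Lims2 and Pstpip1 in WT, and Zyx and Coro1a in KO. The other 16 kept were averaged: the responses of Src, Rhou, Tmod1, Lims2, Pstpip1, Coro1a, Flna, Rac2, Myo9b and Cttn, and the genotype differences of Cbl, Rhou, Myo9b, Cttn, Capg and Parva. The counts of called members moved as follows. The KO response had 8 calls, 13 with the replicate block and length and GC offsets, 14 with only the groups compared, and 5 to 11 with 1 library left out. The WT response had 9, 5 with only the groups compared (Flna, Rac2, Coro1a and Gsn were lost) and 5 to 12 with 1 library left out, the 5 without the second WT viable or the second WT necrotic library. The averaged response had 15 (10 to 16 with 1 left out). The difference of responses had 0 in all settings but no filter, which gave 1. KO against WT under necrotic supernatant had 4 calls, 8 with no filter, 2 with the replicate block, 2 with length and GC offsets, 1 with both, and 0 to 7 with 1 library left out; it was 0 without the first or second KO necrotic or the second WT necrotic library. Under viable supernatant it had 3, 6 with DESeq2's Wald test, 6 with no filter, 1 with block and offsets, and 0 to 4 with 1 left out; it was 0 without the second or without the third KO viable library. The averaged genotype difference had 11, and 6 to 13 with 1 left out, the 6 without the second KO viable library.

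Counts over all genes moved too. The KO response called 1052 genes, 1820 with only the groups compared and 383 without the third KO necrotic library. The WT response called 1318, 359 with only the groups compared, and 385 or 2015 without the second or first WT viable library. KO against WT called 1150 under necrotic supernatant (1857 with no filter, 690 with offsets, 665 with block and offsets, 163 without the first KO necrotic library) and 827 under viable supernatant (1618 with no filter, 449 with only the groups compared, 227 without the second KO viable library). The averaged genotype difference called 2899, and 1885 without the first KO necrotic library.

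Replicate numbers were not treated as pairs, because the sources used here do not say whether they pair the libraries. Same-numbered libraries of different groups correlated at -0.25 to 0.14, with 2 of 18 over 0.1. Libraries with other numbers correlated at -0.17 to 0.20, with 3 of 36 over 0.1. The own number was best in 17 of 36 cases. These values cannot tell whether the libraries were paired. With the replicate block the counts were 8 in KO, 8 in WT, 13 for the average, 0 for the difference, 2 under necrotic, 2 under viable supernatant and 11 for the averaged genotype difference. The cause of these shifts was not tested, apart from fewer libraries where some were left out.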
